A study of Oryza sativa with 39 samples.

Results

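The rice hybrids XIY63, XXY63, SY63 and JY63 shared 96 identifiers that were read in every one of their leaf libraries and were listed at 0 in all libraries of MH63, the parent they have in common. These 96 genes were chosen by that pattern: an FPKM (read fragments scaled to transcript length and to sequencing depth) of at least 0.5 in each of the 12 libraries of the 4 hybrids, called the 63-lines here, and an FPKM of 0 in the 3 MH63 libraries. They are 96 of 109715 identifiers in the files, of 44421 identifiers above 0 in any library, and of 13643 identifiers that passed the minimum in all 12 libraries of the 63-lines. The levels in the 63-lines and in MH63 are therefore given as a description, with no test, and the tests are kept to lines that the choice did not use.

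Leaf RNA was sequenced from 13 lines with 3 pools of 5 plants each, sampled at the tillering stage at an age of 5 weeks. The first 7 lines belong to the Xian/Indica subspecies (XI). The 63-lines are crosses of MH63 (Minghui63), a fertility restorer, with the cytoplasmic male-sterile lines of Xieqingzao (XIY63), Xinxiang (XXY63), Zhenshan 97 (SY63) and Jin 23 (JY63). T1C-19 and HH1 are genetically engineered (GE) lines made from MH63 with Agrobacterium. T1C-19 carries the insecticidal gene cry1C under the maize ubiquitin promoter, and HH1 carries a fused cry1Ab/Ac gene under the rice actin1 promoter. The other 6 lines belong to the Geng/Japonica subspecies (GJ). KMD1 and KMD2 are separate transformation events of cry1Ab under the maize ubiquitin promoter in XS11 (Xiushui 11), CJ03, JH1 and T202 were bred by crossing with XS11 in their pedigree, and XS11 is the parent variety. The female parents of the 63-lines were not among the lines, so the contribution of each parent to a hybrid's reads cannot be told apart.

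A hybrid of this kind inherits 1 copy of the nuclear genome from its female parent and 1 from its restorer. Rice varieties differ in gene content as well as in sequence: a locus present in the Geng/Japonica reference genome can be missing or diverged in an Indica variety, and such differences are frequent between the subspecies. The reads were aligned to IRGSP-1.0, which is built from the Geng/Japonica variety Nipponbare, so that a transcript that differs strongly from that genome may not be counted at its locus. A value of 0 thus means that no read was assigned, and not that the RNA was absent. Genes that every green leaf uses were near 0 here too. OS01G0600900, which encodes a chlorophyll a/b-binding protein, never exceeded an FPKM of 0.126, and OS12G0292400, a small subunit gene of Rubisco, was listed at 0 in all 39 libraries. OS07G0141400, which encodes a subunit of photosystem II, ranged over an FPKM of 3335 to 13880, OS12G0291100, another small subunit gene, over 15.0 to 312, and OS12G0274700, another one, reached 1.09 at most. The small subunit genes are near-identical copies, between which reads can be split or lost in counting. OS02G0662000, a root marker, was at 0 in all 39 libraries, and OS01G0762500, a glutelin gene of the endosperm, ranged over 0.131 to 15.5.

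The reads behind each FPKM were recovered from the step that 1 read makes in it. Between 3989749 and 8318598 recovered reads lay on genes in a library, far fewer than the clean reads that the study lists. MH63 held the deepest library and HH1 the shallowest, so the zeros of MH63 rest on the deepest sequencing and the zeros of HH1 on the least. With a floor of 3 reads over the 3 MH63 libraries, the mean of the 63-lines was at least 3.87-fold (OS10G0397066) to at least 780-fold (predicted gene 12986) above MH63, with a median bound of 38.96-fold, and 90 of the 96 genes had a bound of 10-fold or more. These bounds cover counting error only. In each of the 12 libraries of the 63-lines 56 genes had 10 or more reads, while 14 genes had only 1 to 3 reads in some library.

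The identifiers are of 2 main kinds. Of the 96 genes, 44 (45.8%) are annotated reference loci, and 51 (53.1%) are predicted genes, listed in the files under a running number and given here as predicted gene with that number, and 1 is an Ensembl Plants identifier. Among all 13643 identifiers on in the 63-lines, 60.1% were reference loci and 37.2% were predicted genes. The 96 genes had a median length of 1100.5 bases, against 1665 bases for those 13643 identifiers, and ranged over 66 to 10520 bases. The annotation table at hand matched none of the 44 loci, so their functions are not given here.

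At the edge of the choice lay OS11G0576100, predicted gene 45933 and predicted gene 13638, whose lowest FPKM in a library of the 63-lines was 0.515, 0.517 and 0.522. Just outside were predicted gene 2441 with a lowest value of 0.473, OS02G0216500 with 0.469 and predicted gene 1078 with 0.460. Another 20 identifiers passed the minimum in all 12 libraries and had exactly 1 read in MH63. When 1 read was allowed in each MH63 library the number of genes was 121, and without MH63 replicate 1 it was 130.

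The opposite pattern was rarer. Its rule asks for 0 in more libraries and lines than the choice of the genes did, so the numbers are not like for like. An FPKM of at least 0.5 in the 3 MH63 libraries with 0 in all 12 libraries of the 63-lines was found for 7 identifiers, all Ensembl Plants entries of 38 to 218 bases with 3 to 6 reads in MH63. Hybrid by hybrid, 446 identifiers in XIY63, 347 in XXY63, 352 in SY63 and 392 in JY63 were on in the hybrid and at 0 in MH63, against 213, 70, 110 and 77 that were on in MH63 and at 0 in the same hybrid.

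The plot of all 96 genes shows these levels library by library.

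**Figure D1:**
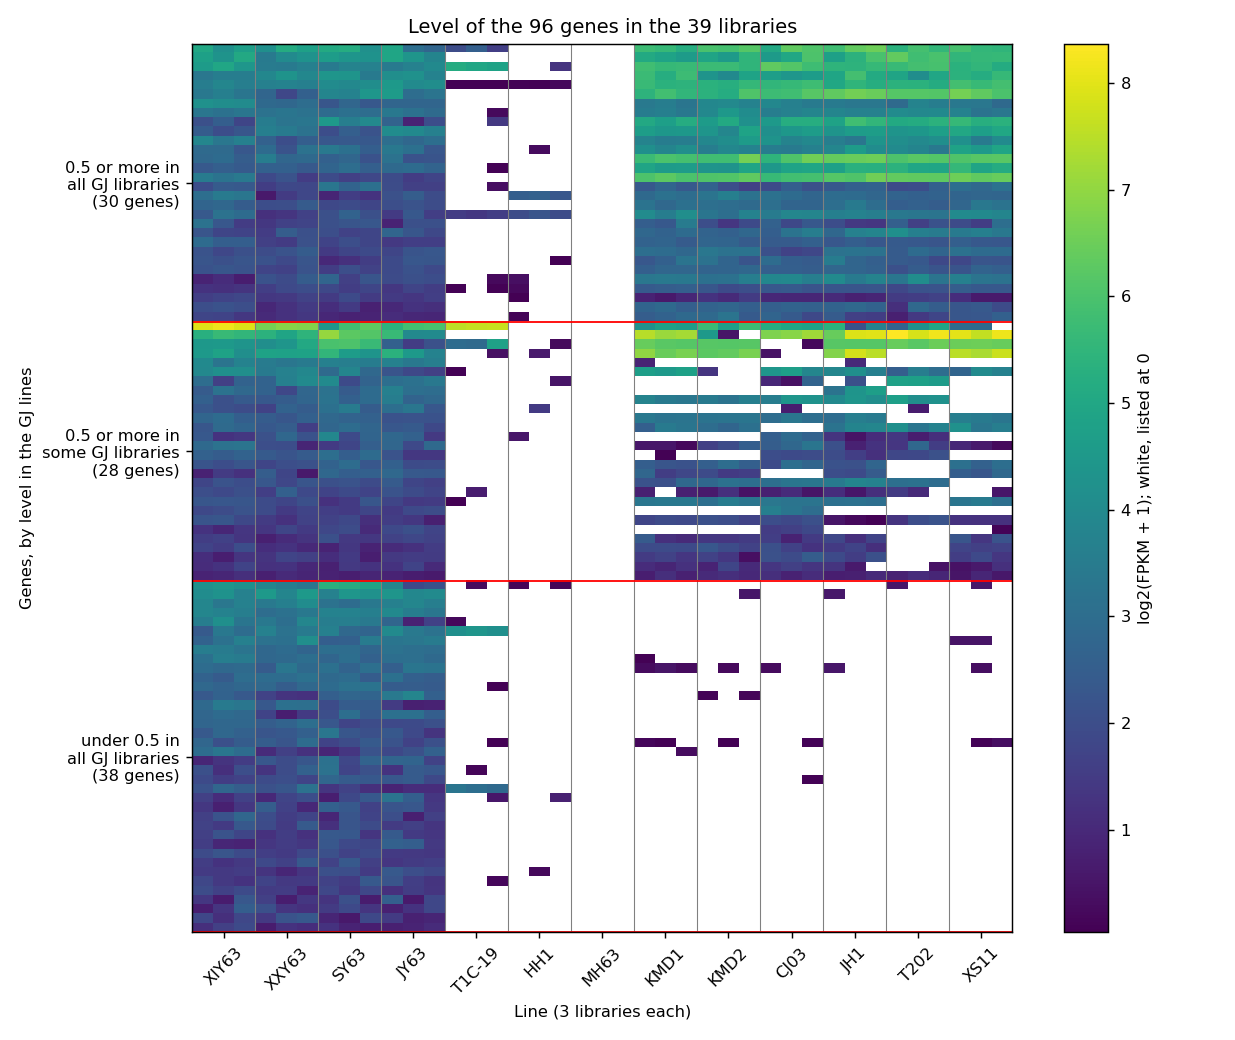
Level of the 96 genes (rows, sorted by the mean of the 63-lines within each block) in the 39 libraries (columns, 3 for each line), as log2(FPKM + 1) with values of 0 in white. The red lines part the 30 genes at 0.5 or more in all 18 GJ libraries, the 28 mixed genes and the 38 genes under 0.5 in all 18, and most of T1C-19 and HH1 is white like MH63.

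Within the 63-lines the levels ran over 2 orders of magnitude. The mean FPKM over the 12 libraries was 0.826 to 117 with a median of 3.96, against a median of 7.81 for all identifiers on in the 63-lines. The highest belonged to EPlOSAG00000051466, an entry of 66 bases with 249, 285 and 240 FPKM in XIY63, 97.0, 114 and 111 in XXY63, 19.99, 54.7 and 77.5 in SY63 and 39.6, 56.7 and 61.1 in JY63. XIY63 stood above the other hybrids in all its libraries. These values rest on 6 to 102 reads in a library, which the short length of the entry scales up. OS12G0628100 followed with 38.3, 48.9 and 44.4 FPKM in XIY63, 40.6, 28.7 and 43.2 in XXY63, 130, 75.2 and 69.6 in SY63 and 48.7, 14.4 and 15.3 in JY63. Here SY63 was highest, and JY63 replicate 1 lay far above the other 2 JY63 libraries.

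The spread between the hybrids was wide. The ratio of the highest to the lowest of the 4 line means had a median of 2.04, against 1.70 for all identifiers on in the 63-lines. It exceeded 2 in 49 of the 96 genes (51.0%, against 35.0%) and 4 in 14 genes (14.6%, against 5.12%). The 96 genes were weaker and shorter than all those identifiers, which were not matched for level or length. XIY63 was the highest line for 39 genes (40.6%, against 34.8% of all identifiers on in the 63-lines), SY63 for 25 (26.0%, against 31.9%), XXY63 for 16 (16.7%, against 13.3%) and JY63 for 16 (16.7%, against 20.02%), shares that lay near those of all identifiers. The widest spread was that of OS01G0820800, with 62.4, 65.0 and 50.3 FPKM in SY63, 21.2, 21.9 and 19.6 in XIY63, 17.0, 19.7 and 32.3 in XXY63 and 5.09, 1.86 and 3.34 in JY63, a ratio of 17.3 between the means of SY63 and JY63. Predicted genes 31359 and 31360, next to each other in running number, were both lowest in JY63, at 1.79, 0.724 and 0.804 FPKM and at 5.76, 0.778 and 2.16 FPKM, and both highest in XIY63, at 6.36, 10.2 and 8.97 FPKM and at 10.8, 17.3 and 8.67 FPKM. OS04G0611700 was highest in SY63 with 39.4, 35.9 and 29.6 FPKM and lowest in JY63 with 13.1, 2.68 and 3.35 FPKM. The 20 genes with the highest means also included OS12G0281966 (12.4 to 44.7 FPKM over the 12 libraries), OS01G0215100 (5.76 to 35.7), OS06G0566850 (9.76 to 32.2), OS08G0236800 (9.77 to 29.996), OS03G0716900 (9.11 to 19.7), OS06G0154600 (8.41 to 14.7), OS05G0560000 (2.49 to 23.2), OS12G0621900 (2.06 to 17.1) and predicted genes 9323 (4.24 to 15.2), 26736 (4.72 to 16.8) and 36322 (3.80 to 17.97). At the other end, OS09G0328900 differed by a ratio of 1.11 between the hybrids and predicted gene 11674 by 1.13.

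Most of the 96 genes were at or near 0 in the GE lines as well. In T1C-19, 71 genes were at 0 in all 3 libraries, 16 had 1 to 3 reads over the 3 libraries and 9 had more. In HH1 these numbers were 78, 14 and 4. In all 6 libraries of both lines 62 genes were at 0. The minimum of 0.5 in all 3 libraries was reached by 7 genes in T1C-19 (7.29%) and by 2 genes in HH1 (2.08%), where 1.13% and 0.429% of the 12806 identifiers at 0 in MH63 and above 0 elsewhere did so. Since the 96 genes were chosen as on in the hybrids and those 12806 were not, the shares are side by side only as a description. The same choice made with T1C-19 in place of MH63 gave 104 identifiers, of which 71 (68.3%, and 74.0% of the 96) were among the genes described here. With HH1 it gave 139, of which 78 (56.1%, and 81.2% of the 96) were. With a GJ line in that place it gave 439 to 474.

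The 7 genes on in T1C-19 were EPlOSAG00000051466 with 184, 200 and 200 FPKM, OS08G0236800 with 34.8, 30.5 and 27.9, predicted gene 9323 with 17.2, 19.7 and 17.0, OS01G0820800 with 6.94, 6.49 and 27.0, predicted gene 45832 with 8.68, 7.19 and 6.37, OS01G0215100 with 2.89, 4.88 and 1.99, and OS08G0392700 with 1.84, 1.62 and 1.98. Of these, OS08G0236800, predicted gene 9323 and predicted gene 45832, had a higher mean in T1C-19 than in any of the 4 hybrids. The 2 genes on in HH1 were predicted gene 45933 with 4.71, 5.13 and 3.92 FPKM and OS08G0392700 with 2.93, 3.68 and 2.83 FPKM. OS08G0392700 was thus the only one of the 96 genes on in both GE lines. All of these are listed at 0 in MH63, from which both lines were made. Predicted gene 12986 stayed at traces in both, with 0.0447, 0.0441 and 0.0432 FPKM in T1C-19 and 0.0712, 0.0365 and 0.172 FPKM in HH1, which correspond to 1 to 5 reads in a library.

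**Figure D2:**
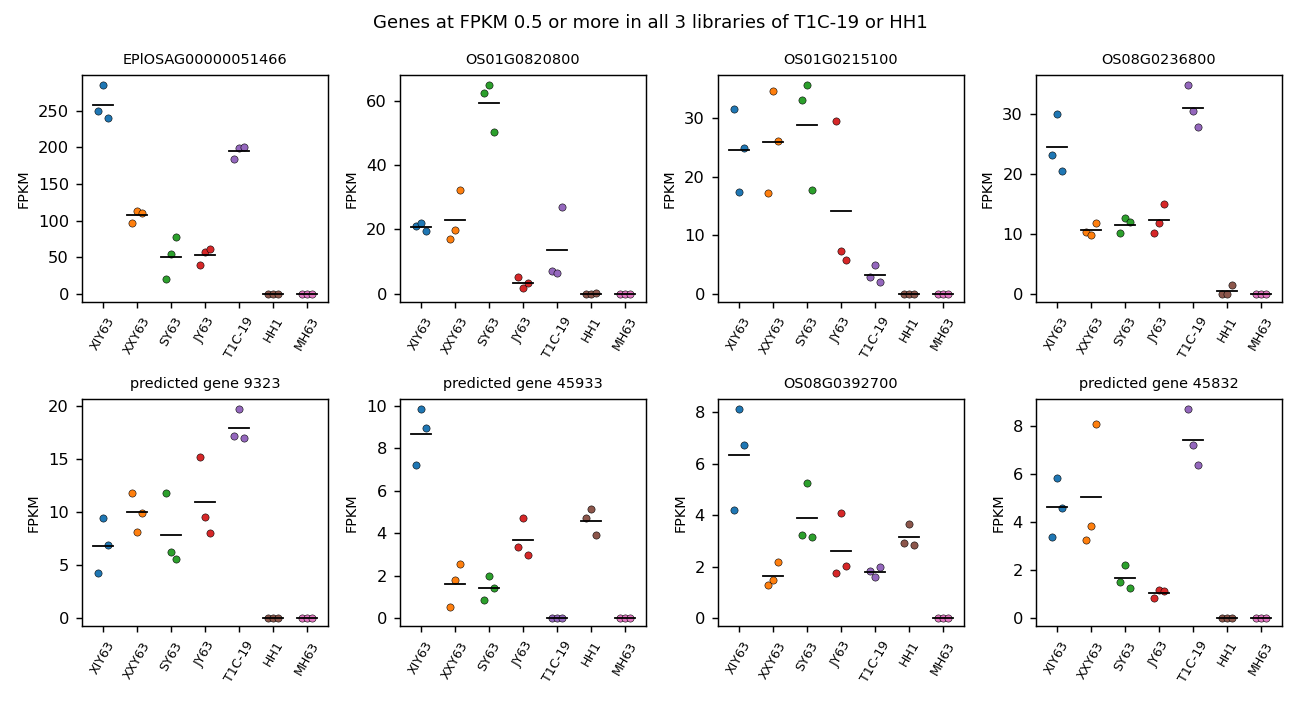
FPKM (vertical axis, a separate linear scale for each panel) of the 8 genes at 0.5 or more in all 3 libraries of T1C-19 or HH1, in the 63-lines, T1C-19, HH1 and MH63. Points are libraries and bars are means of 3: T1C-19 was high and HH1 at or near 0 for 6 genes, HH1 alone was on for predicted gene 45933, and both were on for OS08G0392700.

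T1C-19 and HH1 were compared directly, which the choice of the genes did not involve. Each comparison used limma on log2(FPKM + 1) with Benjamini-Hochberg adjustment over all genes tested, and a gene was called at an adjusted p below 0.05 and a change of at least 2-fold. Of the 96 genes only 8 passed the filter on low values (0.5 in at least 3 of the 6 libraries). Of these, 5 passed through T1C-19 alone and 1 through HH1 alone. OS08G0236800 also needed T1C-19 to pass, since HH1 reached 0.5 in replicate 3 only. The calls of these genes follow in part from the filter. Of the 8 genes 6 were called higher in T1C-19 and 1 lower, while 14.8% and 10.7% of all 20363 genes tested were called in these directions. EPlOSAG00000051466, from 255 reads in T1C-19 and 0 in HH1, was at least 52.7-fold higher (adjusted p = 3.23e-06 by limma). Predicted gene 9323 was at least 29.0-fold higher (adjusted p = 2.55e-05), predicted gene 45832 at least 13.5-fold (adjusted p = 9.1e-05) and OS01G0215100 at least 4.97-fold (adjusted p = 0.00243). OS08G0236800, with 0, 0 and 1.46 FPKM in HH1, was 61.9-fold higher in T1C-19 by reads (log2 fold change 4.57 ± 0.35, SE, adjusted p = 8.09e-05). OS01G0820800, with 347 reads in T1C-19 and 1 in HH1, was 215-fold higher by reads (95% counting interval 38.4 to 8527, adjusted p = 0.000893). Predicted gene 45933, from 0 reads in T1C-19 and 593 in HH1, was at least 320-fold lower in T1C-19 (adjusted p = 5.68e-05). The 7 calls held under every alternative and without any single library. OS08G0392700, at 1.84, 1.62 and 1.98 FPKM in T1C-19 and 2.93, 3.68 and 2.83 FPKM in HH1, passed the adjusted p (log2 fold change -0.56 ± 0.18, SE, adjusted p = 0.0326) but not the 2-fold minimum, and was not called.

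In the GJ lines the 96 genes fell into 3 groups. At 0.5 FPKM or more in all 18 GJ libraries were 30 genes (17 reference loci and 13 predicted genes), under 0.5 in all 18 were 38 genes (14 reference loci and 24 predicted genes), and 28 genes were mixed. By line, 48 of the 96 genes were on in KMD1, 46 in KMD2, 49 in CJ03, 49 in JH1, 43 in T202 and 43 in XS11. Among the 12806 identifiers at 0 in MH63 the shares were 12.2% in KMD1, 11.8% in KMD2, 11.3% in CJ03, 11.2% in JH1, 10.9% in T202 and 10.8% in XS11, and among all identifiers on in the 63-lines they were 87.0% to 90.3%. The 96 genes, at 44.8% to 51.0%, lay between these.

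The 30 genes on throughout the GJ lines were read less in the 63-lines than in the GJ lines. The ratio of the mean of the 63-lines to the mean of the GJ lines had a median of 0.424 with quartiles of 0.310 and 0.568, whereas it was 0.996 with quartiles of 0.738 and 1.31 over the 10733 identifiers on in all 30 libraries. In 29 of the 30 genes the GJ mean was the higher, and 19 (63.3%) had a ratio under 0.5, against 9.19% of the 10733 identifiers. The exception was predicted gene 15858, with a ratio of 1.77. Among the 10593 of these identifiers that were also on in MH63 the median was 1.001. The 63-line values took part in the choice of the genes, so these ratios carry no test, and subspecies and breeding history cannot be told apart in them.

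**Figure D3:**
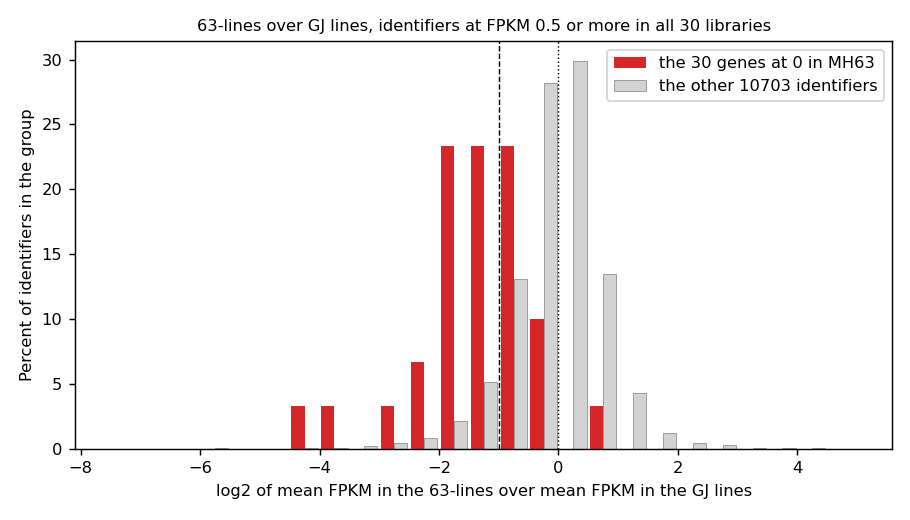
Distribution of the log2 ratio of the mean FPKM in the 63-lines to the mean FPKM in the GJ lines (horizontal axis, bins of 0.5), as the percent of the 30 genes at 0 in MH63 (red) and of the other identifiers on in all 30 libraries (grey). The dotted line marks equal means and the dashed line a ratio of 0.5: 19 of the 30 genes lie left of the dashed line, and the grey bars centre on equal means.

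For 7 of the 30 (23.3%, against 3.4% of the 10733) every GJ library lay above every library of the 63-lines. Predicted gene 11375 was the most extreme, with a lowest, median and highest value of 1.88, 2.76 and 10.2 FPKM in the 63-lines and of 49.0, 73.6 and 92.6 FPKM in the GJ lines, a ratio of 0.0581. OS03G0857000 had 3.43, 5.94 and 10.9 FPKM in the 63-lines and 42.6, 67.8 and 97.9 FPKM in the GJ lines. OS05G0560000 had 2.49, 9.03 and 23.2 FPKM in the 63-lines and 35.5, 67.7 and 96.9 FPKM in the GJ lines. The other 4 were predicted gene 8145 (ratio 0.178), OS01G0873300 (0.263), OS08G0236800 (0.287) and predicted gene 12986 (0.324). Predicted gene 12986 had 10.8, 13.9 and 22.1 FPKM in the 63-lines, against 30.8, 43.0 and 57.7 FPKM in the GJ lines. Other well-read genes of the group overlapped between the subspecies, such as OS01G0956700 with 6.58 to 9.31 FPKM in the 63-lines and 8.32 to 21.1 FPKM in the GJ lines.

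The 38 genes under 0.5 in the GJ lines never exceeded 0.495 FPKM there, and 29 of them were at 0 in all 18 GJ libraries. They were not the weakest genes in the hybrids, with a median of the mean FPKM in the 63-lines of 3.69, against 4.10 for the 30 genes on in the GJ lines. OS04G0611700 and OS07G0109800 led them. OS07G0109800 had 16.0, 18.3 and 11.9 FPKM in XIY63, 21.7, 13.2 and 21.6 in XXY63, 12.03, 20.5 and 18.1 in SY63 and 19.9, 13.7 and 15.4 in JY63, and a highest GJ value of 0.495. OS09G0531701 (13.6, 9.17 and 12.03 in XIY63, 9.69, 11.5 and 16.0 in XXY63, 8.14, 6.97 and 9.41 in SY63, and 11.6, 13.7 and 11.0 in JY63) and predicted gene 2573 (13.7, 12.4 and 11.1 in XIY63, 7.10, 7.81 and 9.41 in XXY63, 12.3, 12.2 and 11.4 in SY63, and 14.9, 10.9 and 9.01 in JY63) were at 0 in all libraries of the other 9 lines. In total 21 of the 96 genes were read in no line other than the 63-lines. Among the 38, predicted genes 9323 and 45832, were on in T1C-19 and at 0 in every GJ library.

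The 28 mixed genes differ among the GJ libraries by definition. Each other GJ line was compared with XS11 in the same way, over all 96 genes. The called genes thus include some that were on throughout the GJ lines, such as OS11G0636600. These 5 comparisons share the XS11 libraries, so a low XS11 value enters all of them. Of the 96 genes 48 to 53 passed the filter. In KMD1/XS11, 2 were called higher and 0 lower, where 2.24% and 1.69% of all genes tested were called, with 21 at an unadjusted p below 0.05, while voom on the reads called 5 higher and 0 lower. In KMD2/XS11, 4 were called higher and 4 lower (6.6% and 6.81% of all genes), while voom called 11 higher and 2 lower. In CJ03/XS11, 8 were called higher and 6 lower (4.96% and 5.31%). In JH1/XS11, 4 were called higher and 0 lower (1.43% and 1.62%), with 12 at an unadjusted p below 0.05, while voom called 4 and 1. In T202/XS11, 4 were called higher and 10 lower (5.46% and 4.23%), while voom called 6 and 8. As in T1C-19/HH1, many of the called genes had passed the filter with the other line under 0.5 in all its libraries. These were 2 of 2 in KMD1/XS11, 2 of 8 in KMD2/XS11 and 10 of 14 in CJ03/XS11. In JH1/XS11 they were 4 of 4, and in T202/XS11 12 of 14. Further called genes had the lower line at 0.5 in too few libraries to pass without the higher line. They were EPlOSAG00000051466 and predicted gene 44878 in KMD2/XS11 and CJ03/XS11, and OS12G0628100 and OS12G0621900 in KMD2/XS11. The calls of all these genes follow in part from the filter. The counts are therefore a description of these genes. Voom scales libraries by read totals, which moved the median log2 change of all genes by 0.1 or more upward in T1C-19/HH1 (to 0.16), KMD1/XS11 (to 0.24), KMD2/XS11 (to 0.30), CJ03/XS11 (to 0.21) and T202/XS11 (to 0.078).

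**Figure D4:**
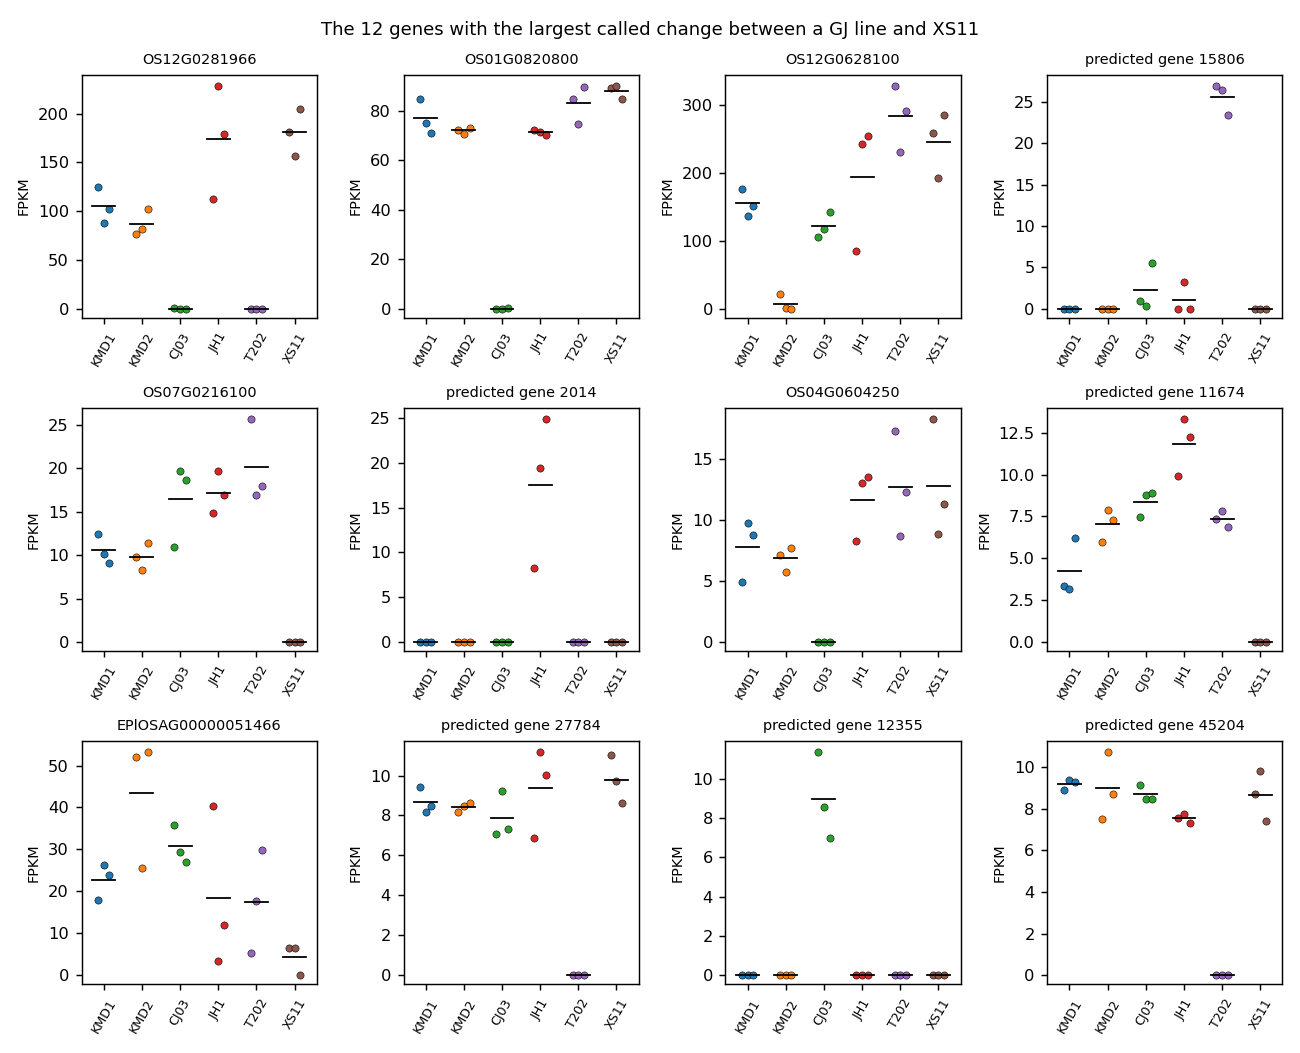
FPKM (vertical axis, a separate linear scale for each panel) in the 6 GJ lines of the 12 genes with the largest called change between a GJ line and XS11. Points are libraries and bars are means of 3: OS07G0216100 and predicted gene 11674 are at 0 in XS11 alone, predicted genes 27784 and 45204 in T202 alone, and OS12G0628100 is low in KMD2.

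A pair of genes was at 0 in XS11 and on in the other 5 GJ lines. OS07G0216100 had 12.5, 10.1 and 9.07 FPKM in KMD1, 9.81, 8.30 and 11.4 in KMD2, 10.9, 19.7 and 18.6 in CJ03, 14.8, 19.7 and 16.9 in JH1 and 25.7, 16.9 and 17.9 in T202, against 0 in the 3 XS11 libraries. It was at least 37.1-fold higher in KMD1, 34.6-fold in KMD2, 57.7-fold in CJ03, 60.4-fold in JH1 and 71.0-fold in T202, with adjusted p-values by limma of 2.66e-05 to 0.00047. In each of these tests it had passed the filter through the line set against XS11 alone, and so had predicted gene 11674. Predicted gene 11674 had 3.36, 3.19 and 6.20 FPKM in KMD1, 6.002, 7.92 and 7.27 in KMD2, 7.50, 8.76 and 8.88 in CJ03, 9.91, 13.3 and 12.2 in JH1 and 7.37, 7.84 and 6.86 in T202, and 0 in XS11. It was at least 51.6-fold higher in KMD1 (adjusted p = 0.00883), a call lost without KMD1 replicate 1, 2 or 3 (adjusted p of 0.0511 to 0.0549), and at least 85.8-fold higher in KMD2, 102-fold in CJ03, 144-fold in JH1 and 89.3-fold in T202 (adjusted p of 4.13e-05 to 0.000154). KMD1 and KMD2 were made from XS11, and both genes were read in both lines and in none of the 3 XS11 libraries.

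T202 lacked reads of a set of genes that the other GJ lines held. Predicted gene 27784 was at 0 in the 3 T202 libraries and had 11.0, 9.72 and 8.62 FPKM in XS11, at least 148-fold lower in T202 (adjusted p = 3.69e-05 by limma). Predicted genes 45204, 45237, 45254 and 45256, which follow each other closely in running number, were all at 0 in T202 and on in XS11. Predicted gene 45204 was at least 258-fold lower (adjusted p = 3.89e-05), 45237 at least 28.5-fold (adjusted p = 0.00045), 45256 at least 28.5-fold (adjusted p = 0.00414) and 45254 at least 6.24-fold (adjusted p = 0.0208). The call of predicted gene 45254 was lost without XS11 replicate 2 (adjusted p = 0.0657). A running number is not a position, and the files give none for predicted genes. OS06G0620000 was also at 0 in T202, at least 11.0-fold lower (adjusted p = 0.0124, and 0.0581 without XS11 replicate 3). These 6 genes had passed the filter through XS11 alone, where they were high, so their calls follow in part from the filter.

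CJ03 and T202 shared the lack of reads of OS12G0281966. It had 0.369, 0 and 0 FPKM in CJ03 and 0 in the 3 T202 libraries, against 181, 157 and 205 FPKM in XS11. In CJ03 it was 1377-fold lower by reads (1 read in CJ03, 95% counting interval 247 to 54427, adjusted p = 1.51e-06 by limma) and in T202 at least 452-fold lower (adjusted p = 6.97e-07). Predicted gene 13638 was likewise at 0 in both lines, at least 17.1-fold lower in CJ03 (adjusted p = 0.00145) and 16.8-fold lower in T202 (adjusted p = 0.00156). OS01G0820800 had 0, 0 and 0.154 FPKM in CJ03, against 89.5, 90.2 and 84.9 FPKM in XS11, and was 1884-fold lower by reads (1 read in CJ03, interval 338 to 74467, adjusted p = 1.51e-06). OS04G0604250 was at 0 in the 3 CJ03 libraries and at 18.3, 8.87 and 11.3 FPKM in XS11, at least 34.1-fold lower (adjusted p = 0.000278). All of these genes had likewise passed the filter through XS11 alone. OS01G0820800 is the gene that also varied most among the 63-lines and that was on in T1C-19 and at 1 read in HH1.

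Some genes were on in 1 GJ line or in 3, and each had passed the filter through the line where it was on alone, so their p-values follow in part from the filter. Predicted gene 12355 had 11.4, 8.58 and 6.995 FPKM in CJ03 and was at 0 in the other 15 GJ libraries, at least 63.9-fold above XS11 (adjusted p = 0.000121 by limma). OS06G0170100 had 1.87, 2.04 and 2.63 FPKM in CJ03, against 0, 0 and 0.096 in XS11, a 68.0-fold difference by reads (1 read in XS11, 95% counting interval 11.9 to 2719, adjusted p = 0.00462). Predicted gene 2014 had 8.23, 19.4 and 24.9 FPKM in JH1 alone, at least 24.5-fold above XS11 (adjusted p = 0.00131). Predicted gene 15806 had 27.0, 26.5 and 23.5 FPKM in T202 and 0 in XS11, at least 64.4-fold higher (adjusted p = 7.2e-06), with further reads in CJ03 (0.938, 0.328 and 5.50 FPKM) and in 1 JH1 library (3.20 FPKM). OS11G0628000 was on in CJ03, JH1 and T202 and at 0 in XS11, at least 45.3-fold, 32.5-fold and 43.6-fold higher. Its adjusted p was 0.000978 in CJ03, 0.0016 in T202 and 0.0293 in JH1, where the call was lost without any 1 of the 6 libraries (adjusted p of 0.0573 to 0.125).

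KMD2 was low in a pair of chromosome 12 loci. OS12G0628100 had 21.6, 0.438 and 0 FPKM in KMD2, against 260, 192 and 285 FPKM in XS11 (log2 fold change -6.25 ± 1.04, SE, adjusted p = 0.00791 by limma). OS12G0621900 had 1.49, 0 and 0 FPKM in KMD2, against 5.65, 15.3 and 12.05 FPKM in XS11 (log2 fold change -3.05 ± 0.45, SE, adjusted p = 0.00537). In both, KMD2 replicate 1 held nearly all of the KMD2 reads and was the only KMD2 library at 0.5 or more. To pass the filter both genes needed the other line, XS11 here and KMD1 below. Their calls thus follow in part from the filter. KMD2 was then set directly against KMD1, a comparison added after these values were seen, in which 1 of the 96 genes was called higher and 3 lower (1.67% and 2.82% of 21234 genes tested). KMD1 had 176, 137 and 151 FPKM of OS12G0628100 and 24.9, 21.9 and 26.5 FPKM of OS12G0621900, so that the log2 change of KMD2 over KMD1 was -5.60 ± 1.01 (adjusted p = 0.0175) and -4.22 ± 0.34 (adjusted p = 0.000846). The call of OS12G0628100 was lost without KMD2 replicate 2 (adjusted p = 0.0712), without KMD1 replicate 1, 2 or 3 (0.0572 to 0.103) or with no filter on low values (0.089). OS12G0281966 had 76.9, 81.9 and 102 FPKM in KMD2, a log2 change of -1.05 (adjusted p = 0.00745) that came to -0.97 without KMD2 replicate 1, -0.96 without XS11 replicate 3 and -0.73 with voom, each under the 2-fold minimum. EPlOSAG00000051466 had 52.0, 25.5 and 53.2 FPKM in KMD2, against 6.49, 6.46 and 0 in XS11 (4 reads), a log2 change of 3.47 (adjusted p = 0.0188). With XS11 at 0 in replicate 3, this entry needed KMD2 to pass the filter, so its call follows in part from the filter. The call was lost without any 1 KMD2 library (adjusted p of 0.0566 to 0.0826), with a pseudocount of 0.1 (0.0578) and with no filter on low values (0.0647).

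The 44 reference loci carry their chromosome and order in the identifier. Their numbers on chromosomes 1 to 12 were 6, 3, 3, 2, 1, 6, 4, 4, 4, 1, 7 and 3. Chromosome 11 held the most, 7 loci or 15.9% of the 44, against 6.29% of all reference loci with reads. The groups were spread unevenly: the 4 loci of chromosome 8 and the 3 of chromosome 3 were all on throughout the GJ lines, whereas 4 of the 7 loci on chromosome 11 and 3 of the 4 on chromosomes 7 and 9 each were under 0.5 in all GJ libraries. Those 4 loci of chromosome 11 form the cluster described below. With so few loci these are counts and no test was made.

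**Figure D5:**
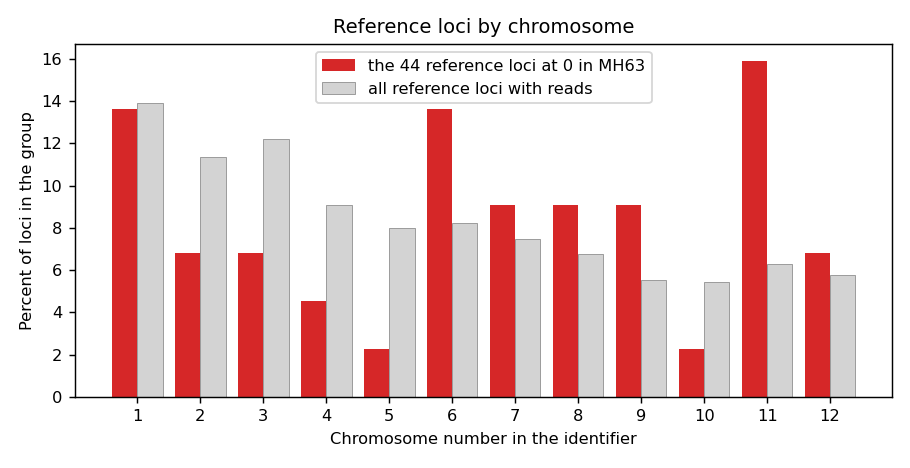
Share of the 44 reference loci at 0 in MH63 (red) and of all reference loci with reads (grey) on each of the 12 chromosomes, in percent of the loci in the group, by the chromosome number in the identifier. Chromosome 11 has the tallest red bar, at 15.9% against 6.29%.

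A cluster was defined as 3 or more genes with at most 5000 units of locus number between neighbours. One was found, on chromosome 11, of OS11G0574200, OS11G0576100, OS11G0578225 and OS11G0578250, which span 4050 units. OS11G0574200 had 1.90, 1.41 and 1.67 FPKM in XIY63, 2.69, 2.14 and 4.21 in XXY63, 2.18, 4.13 and 2.091 in SY63 and 1.57, 1.82 and 2.02 in JY63. OS11G0576100 had 2.54, 1.23 and 2.51 FPKM in XIY63, 1.69, 3.53 and 4.07 in XXY63, 0.862, 0.515 and 2.58 in SY63 and 1.83, 0.734 and 0.889 in JY63. OS11G0578225 had 5.68, 5.99 and 6.08 FPKM in XIY63, 4.61, 5.40 and 7.31 in XXY63, 3.96, 2.36 and 2.96 in SY63 and 2.69, 2.76 and 3.18 in JY63. OS11G0578250 had 2.18, 1.76 and 4.03 FPKM in XIY63, 2.87, 1.79 and 4.27 in XXY63, 1.31, 3.72 and 2.84 in SY63 and 1.78, 2.03 and 1.505 in JY63. All 4 were read in the 12 libraries of the 63-lines and at 0 in the other 27 libraries.

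The 4 loci did not form an unbroken block. The run from the first to the last holds 27 loci, of which 13 were at 0 in all 39 libraries and 10 others had reads. OS11G0576900, between OS11G0576100 and OS11G0578225, was read in all 39 libraries, with a mean of 7.66 FPKM in MH63. OS11G0574400, OS11G0574500 and OS11G0574725 were read in GJ lines and at 0 in the 63-lines, T1C-19, HH1 and MH63. At a gap of 2000 units no cluster was left, and at 10000 units the same 4 loci formed the only one. Outside it, OS07G0140566 and OS07G0140633 lay 67 units apart and were both at 0 outside the 63-lines. OS09G0325366 and OS09G0328900 lay 3534 units apart and differed. OS09G0325366 reached 0.5 in libraries of every GJ line but T202, and OS09G0328900 stayed under 0.5 in all GJ libraries. Of the 32 pairs of neighbouring loci on a chromosome, 5 were within 5000 units, and the median distance was 52825 units. Locus numbers rise along a chromosome but are not bases, so these distances give order and rough nearness only. The same distances were not taken over other reference loci, so whether these loci lie closer together was not tested.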

How the data were processed

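Leaf RNA of 13 rice lines was sequenced on an Illumina HiSeq instrument from NEBNext Ultra libraries (3 pools of 5 plants for each line). Per the submitters' processing notes and the study's methods, reads were aligned to IRGSP-1.0 with HISAT2 2.09 and counted with featureCounts 1.5.0-p3, and the authors deposited 1 set of FPKM values for each library. Whether counting used strand is not given in the sources used here, so overlapping and antisense genes, and near-identical copies, cannot be separated. Reads behind each FPKM were recovered from whole-number steps: 100% of the values above 0 were within 0.01 of a whole read. The recovered reads are far fewer than the clean reads that the study lists, for a reason that was not tested. The read numbers could share a common factor, which would change depths, floors, fold bounds and counting intervals but not FPKM.

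The groups come from the sample titles (the line label of the JY63 samples reads JY6). The pools are separate samples, but nothing says that they came from separate plots, so p-values measure the spread between pools. No 2 replicates agreed within sampling noise (chi-square per gene of 5.28 or more in 39 pairs).

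The genes and gene lists were chosen with earlier results of these data known. Comparisons used limma (version 3.58.1, R 4.3.3) on log2 values of FPKM with a pseudocount of 1, for genes at 0.5 FPKM or more in at least 3 of 6 libraries, with the variance trend over mean log2 reads, tested on simulated data. Fold changes on that scale understate changes of low genes. Folds against a line at 0 are lower bounds against 3 reads over its 3 libraries. Named are the genes with the highest means in the 63-lines, those on in T1C-19 or HH1, cluster members, up to 3 called genes in each direction for each comparison and those at the edge of the choice. Further genes, named where they share a pattern, were chosen after their values were seen. Functional classes could not be applied, since 0 of the loci matched the annotation table. Alternatives were other FPKM minimums, a pseudocount of 0.1, no filter, the default trend, voom, median scaling, 1 model of all 39 libraries, the replicate number as a block, other gaps and leaving out each library. Per-sample columns not used numbered 0. Scripts ran in Python 3.11.15 (pandas 2.3.3; scipy 1.17.1), and matplotlib 3.10.9 drew the figures.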

Additional observations from a re-analysis of the deposited data

Results flagged for a closer look

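Among the 96 genes 4 differed between KMD2 and KMD1, 2 transformation events of the same construct in XS11, in a comparison added after their values were seen (limma, adjusted over 21234 genes). The log2 fold change of KMD2 over KMD1 was -5.60 for OS12G0628100 (adjusted p = 0.0175), -4.22 for OS12G0621900 (adjusted p = 0.000846), -1.17 for OS03G0716900 (adjusted p = 0.0318) and 1.60 for predicted gene 44878 (adjusted p = 0.0151). OS03G0716900 had 19.3, 14.7 and 28.4 FPKM in KMD2, against 52.0, 36.7 and 52.2 FPKM in KMD1. Predicted gene 44878 had 2.07, 2.84 and 4.82 FPKM in KMD2, against 0.447, 0.461 and 0.156 FPKM in KMD1, and had passed the filter on low values through KMD2 alone, so its call follows in part from the filter. OS12G0628100 and OS12G0621900 reached 0.5 in KMD2 replicate 1 only and so needed the KMD1 libraries to pass the filter. Of the 4, OS12G0621900 kept its call without any 1 library and with no filter. With no filter on low values the call was lost for OS12G0628100 (adjusted p = 0.089), OS03G0716900 (0.107) and predicted gene 44878 (0.0521), and with the default variance trend for OS03G0716900 (0.0515). It was also lost without KMD2 replicate 1 for OS03G0716900 (adjusted p = 0.114), without KMD2 replicate 2 for OS03G0716900 (0.0888), OS12G0628100 (0.0712) and predicted gene 44878 (0.0564), without KMD1 replicate 1 for these 3 (0.146, 0.103 and 0.0699), without KMD1 replicate 2 for OS12G0628100 (0.0572) and without KMD1 replicate 3 for the same 3 (0.128, 0.0816 and 0.0641).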

How the results depend on the processing

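The number of genes was 96, and 121 with a minimum of 0.25, 65 with a minimum of 1, 121 with 1 read allowed in each MH63 library and 96 to 130 without 1 library. The counts of genes on in T1C-19 and HH1 were 7 and 2 under every minimum and without any of their own libraries, and those in the GJ lines stayed within 1.5 times. Of the counts of calls, that of KMD1/XS11 was 2, 5 with voom, 4 with all 39 libraries in 1 model and 1 to 3 without 1 library. That of KMD2/XS11 was 8, 13 with voom and 5 to 10 without 1 library. That of KMD2/KMD1 was 4, 1 with no filter on low values and 1 to 4 without 1 library. The other counts stayed within 1.5 times, with 7 for T1C-19/HH1, 13 to 14 for CJ03/XS11, 3 for JH1/XS11 and 11 to 14 for T202/XS11 without 1 library. Where a line was left with 2 libraries, the filter asked for 2. The cluster was not found with neighbours at most 2000 units apart (0 clusters). Of 53 calls in all comparisons none changed direction, 39 held throughout, 17 of 371 refits with all libraries and 45 of 318 without 1 library lost a call. Of the 53 calls 37 were of genes that passed the filter on low values with the other line under 0.5 in all its libraries. Some of the other calls also needed the higher line to pass it. The cause of these changes was not tested. The replicate number as a block gave 7 calls for T1C-19/HH1, 3 for KMD1/XS11, 8 for KMD2/XS11, 14 for CJ03/XS11, 3 for JH1/XS11, 13 for T202/XS11 and 4 for KMD2/KMD1, and under it the calls of OS11G0628000 in JH1/XS11 (adjusted p = 0.106) and predicted gene 45254 in T202/XS11 (0.051) were lost. Same-numbered samples deviated together with a correlation over 0.1 in all 3 pairs of no comparison. In KMD1/XS11, at 0.0527, 0.149 and 0.216, every sample correlated best with its own number. The mean correlation of the pairs ran from -0.101 in CJ03/XS11 to 0.139 in KMD1/XS11. Whether same-numbered samples share a batch was not tested. Depth limits mainly the zeros of HH1, whose libraries are the shallowest.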

Other observations

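KMD2 replicate 1 differed from KMD2 replicates 2 and 3 at further loci, around the pair on chromosome 12 and on other chromosomes. Reference loci at 1 FPKM or more in all KMD1 and XS11 libraries numbered 7998. Of these, 15 had at least 0.5 FPKM in KMD2 replicate 1 and 0 in replicates 2 and 3, a rule set after the values were seen, against 0 loci on in replicate 2 alone and 0 in replicate 3 alone. Chromosome 12 held 4 of the 15 (of 418 loci compared), chromosome 10 held 3 (of 386), chromosome 11 held 3 (of 380), chromosome 9 held 2 (of 433) and chromosomes 1, 4 and 6 held 1 each (of 1096, 706 and 665). OS12G0621900, a member of the pair that led to the rule, is counted among the 15 and among the 4 on chromosome 12. OS12G0620866 had 11.2, 0 and 0 FPKM in KMD2, against 24.9, 25.7 and 29.9 FPKM in KMD1. OS12G0628300, not at 0 in any KMD2 library, had 8.66, 0.508 and 0.437 FPKM in KMD2, against 23.1, 21.3 and 22.5 FPKM in KMD1. OS12G0622900 had 1.25, 0 and 0 FPKM in KMD2, against 9.33, 10.2 and 9.09 FPKM in KMD1. The same split appeared on chromosome 9, where OS09G0272200 had 4.75, 0 and 0 FPKM in KMD2, against 28.5, 18.9 and 28.4 FPKM in KMD1, and OS09G0276600 had 4.93, 0 and 0 FPKM in KMD2, against 28.1, 27.8 and 26.1 FPKM in KMD1. On chromosome 11, OS11G0597700 had 3.11, 0 and 0 FPKM in KMD2, against 5.94, 7.99 and 4.87 FPKM in KMD1. Each KMD2 library is a pool of 5 plants.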
